A study of Mus musculus with 12 samples.

Results

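The transcripts of 10 genes of the NRF2 antioxidant program (Nfe2l2, Keap1, Gclc, Gclm, Gsr, Txnrd1, Prdx1, Srxn1, Nqo1 and Sod2) were measured in murine bone marrow–derived macrophages (BMDMs). The genes were taken by their symbols from a table of 34327 genes, in which all 10 were found, and all 10 passed the filter on low values. The cells came from wild-type C57BL/6J mice, whose age the labels do not give, and were grown in L929-conditioned medium, which is a source of CSF1. They were cultured for 24 hours in low-collagen gels (2 mg/ml of rat type I collagen), in high-collagen gels (7 mg/ml) or on tissue culture (TC) plates, either untreated or stimulated with murine IL-4 at 20 ng/ml, a cytokine of type 2 immunity. There were 2 libraries for each of the 6 conditions, 12 in all, of which 8 came from gels. The labels do not say whether the 2 libraries of a condition came from separate cultures or mice, so that p-values measure only the spread between these libraries, which may be technical. With 2 libraries against 2, an exact permutation test of a single gene cannot give a p-value below 0.33, even where the libraries do not overlap. The tests below share the spread across genes.

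NRF2, the protein of Nfe2l2, is a transcription factor that switches on genes for detoxification and antioxidant defense through a DNA motif known as the antioxidant response element. KEAP1 binds NRF2 and delivers it to a ubiquitin ligase for degradation, and oxidants or electrophiles that modify cysteines of KEAP1 let NRF2 accumulate, so that much of its control lies in the protein and not in the transcript. In macrophages, NRF2 limits oxidative damage during phagocytosis and inflammation, and its targets maintain glutathione and thioredoxin, the main thiol reductants of the cell.

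The core of the antioxidant response element, TGACNNNGC, was searched for on both strands of the RefSeq promoters of GRCm38.p6, each of 300 bases (250 before and 50 after the gene's start), because it is the sequence through which NRF2 acts. It was found in 12.4% of the 32851 promoters in the table. There were 10 promoters for 8 of the genes, and 5 of these promoters, from 5 genes, held it. These are the stretches around each match, written 5′ to 3′ on the strand of the motif, with the core in capitals:
Gclm: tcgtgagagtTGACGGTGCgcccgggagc
Txnrd1: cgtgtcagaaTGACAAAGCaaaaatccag
Srxn1: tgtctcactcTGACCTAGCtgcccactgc
Prdx1: ctacgggggaTGACTCAGCgctttccctg
Nfe2l2: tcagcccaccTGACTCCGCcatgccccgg

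The Gclm stretch lies at chr3:122245413-122245441, upstream of the gene, and its core lies 134 bases before the start, counted along the gene to the upstream end of the core, as for those that follow. The Txnrd1 stretch, at chr10:82859104-82859132, precedes 1 of 3 starts of that gene by 92 bases and lies inside the annotated span of the gene. The Srxn1 stretch, at chr2:152105542-152105570, has its core 28 bases after the start. The Prdx1 stretch, at chr4:116685456-116685484, has its core 133 bases before the start, and this core also holds TGANTCA, the motif of the AP-1 factors. That motif was found 2 times in the promoter of Prdx1 and 2 times in that of Srxn1, in none of the other 8 promoters, and in 7.81% of all promoters. The Nfe2l2 stretch is on the minus strand at chr2:75704885-75704913, and its core lies 240 bases before the start. The first 4 are on the strand opposite to a gene of the plus strand, and thus also on the minus strand. The promoters of Nqo1, Sod2 and Keap1 held no match in this window, and no promoters of Gclc and Gsr were used here. A match is a description of the letters and was not tested as a binding site.

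The cells carried transcripts of macrophages throughout, with a summed level of 10 macrophage markers of 18912 to 54472 TPM (the abundance of a gene's transcripts relative to all transcripts of the library, per length, with an equal total for each library). Lyz2 alone gave 13223 to 48901 TPM of these sums. Fibroblast, mast cell and basophil, T and B cell and dendritic cell markers each summed to at most 3.01 TPM in any library. Neutrophil markers summed to 5.25 to 10.6 TPM on TC plates and 14.6 to 34.6 TPM in gels, with Ly6g listed at 0 in all 12 libraries, and eosinophil markers summed to 0.458 to 3.37 TPM, with Epx listed at 0 in all 12. The IL-4 target genes Arg1, Retnla and Chil3 summed to 3.88 to 48.8 TPM in untreated libraries and to 3806 to 18562 TPM in IL-4-treated ones. Libraries of one condition correlated with r of 0.980 to 0.985 across genes, and TPM values keep no sequencing depth. In bulk RNA, fewer cells of a type and less RNA per cell cannot be told apart.

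Prdx1, a peroxiredoxin that reduces hydrogen peroxide, was by far the most abundant of the 10 transcripts and took 74.4% to 81.6% of their summed TPM in every library. Its mean level over the 12 libraries ranked 54 among the 11865 genes tested. Nqo1, a quinone reductase widely used as a marker of NRF2 activity, was the least abundant and ranked 11054, and its log2 fold changes had the largest standard errors of the 10 genes. Untreated cells on TC plates had the highest condition mean of 9 of the 10 genes, and Gclc was 32.1 TPM there and 32.7 TPM on TC plates with IL-4. The lowest mean was in low-collagen gels with IL-4 for 8 of the 10 genes. The exceptions were Keap1, whose lowest mean was in untreated low-collagen gels (28.3 TPM), and Sod2, whose lowest mean was in high-collagen gels with IL-4 (14.8 TPM, against 14.9 TPM in low-collagen gels with IL-4).

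**Figure D1:**
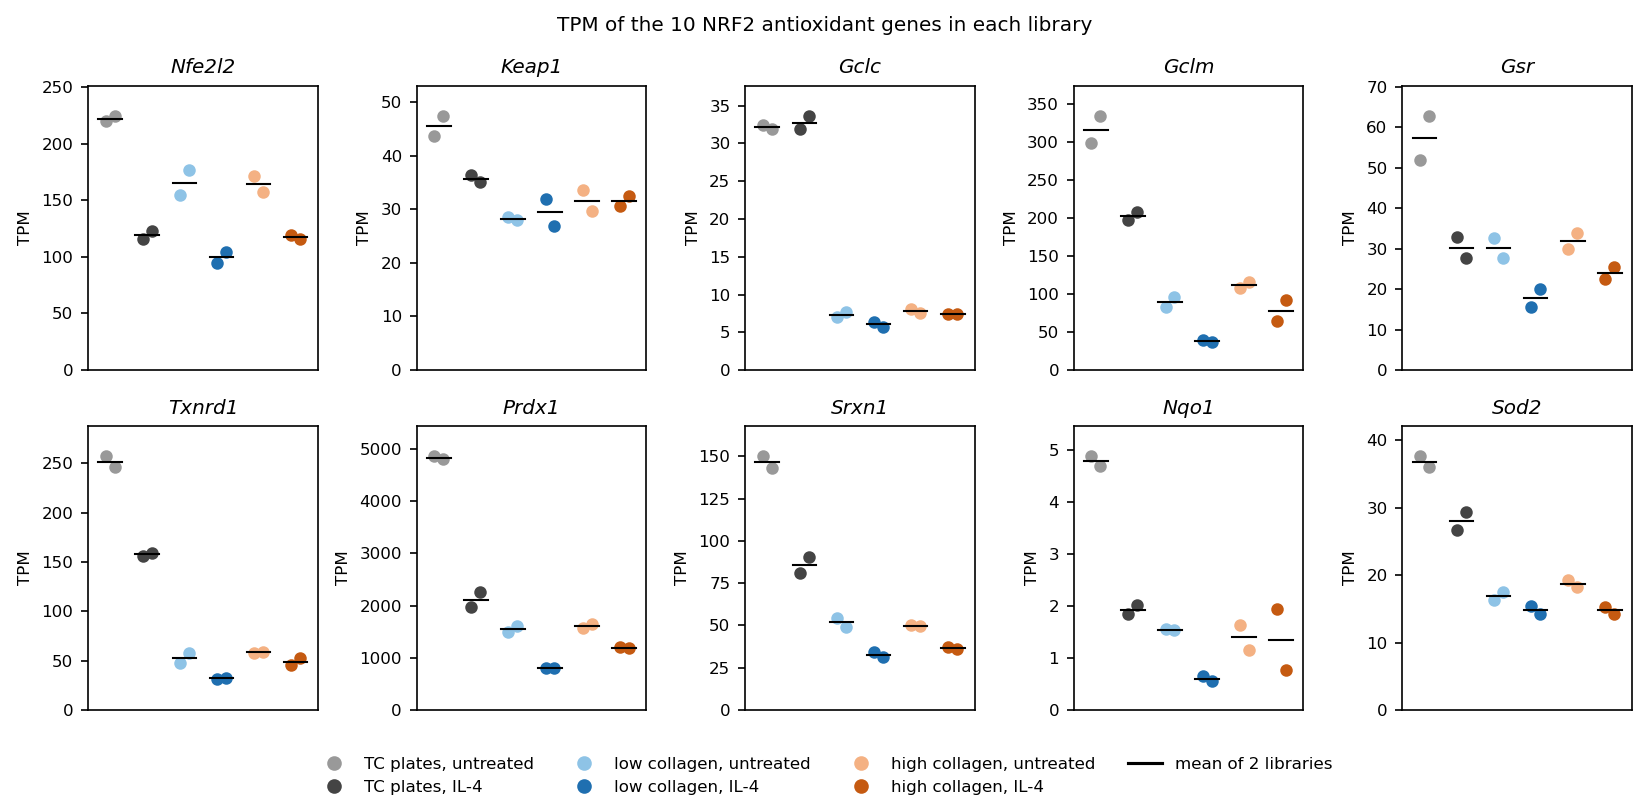
TPM (vertical axis, from 0, scaled separately for each gene) of the 10 genes in each of the 12 libraries, with colors for the 6 conditions and a black line for the mean of the 2 libraries. Most genes sit highest in untreated cells on TC plates and lowest in low-collagen gels with IL-4; Gclc stays at 31.9 to 33.6 TPM on TC plates with or without IL-4 and at 5.74 to 8.09 TPM in gels, and Keap1 varies least.

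The first comparison asks how IL-4 changed these transcripts on each substrate. Genes were called where their adjusted p-value was below 0.2, by limma on log2(TPM + 1) with Benjamini-Hochberg adjustment over all genes tested. The study set the same cutoff on q-values of another test, Sleuth, so these calls are not its own. IL-4 lowered 9 of the 10 genes on TC plates, 8 in low-collagen gels and 7 in high-collagen gels, and raised 0 on any of them. The count in high-collagen gels was 4 without replicate 1 of the IL-4-treated libraries. Across all genes, 24.0%, 40.4% and 22.8% were called lower and 14.7%, 13.2% and 11.5% higher in the same 3 comparisons. The median log2 fold change of the 10 genes was −0.72 on TC plates, −0.68 in low-collagen gels and −0.36 in high-collagen gels, beside medians of −0.06, −0.19 and −0.10 over all genes. Averaged over the 3 substrates, 9 of the 10 genes were called lower and 0 higher, against 46.3% lower and 17.6% higher of all genes, and the median of the 10 genes was −0.59 beside −0.12 for all genes. TPM values are relative to the rest of the library. Rescaling each library by its median ratio moved the median of all genes up by 0.19 in low-collagen gels, by 0.12 for the average, by 0.10 in high-collagen gels and by 0.06 on TC plates. The share of all calls that were higher moved with it, from 24.7% to 54.1% in low-collagen gels, from 33.6% to 53.8% in high-collagen gels, from 37.95% to 49.4% on TC plates and from 27.5% to 51.5% for the average, and the median of the 10 genes became −0.50, −0.25, −0.66 and −0.49 in that order. The summed macrophage markers were also lower with IL-4, at 18912 to 18944 against 28421 to 29026 TPM on TC plates, 31689 to 32782 against 43782 to 46673 TPM in low-collagen gels and 36548 to 38521 against 54267 to 54472 TPM in high-collagen gels. Lyz2 made most of each sum (23767 TPM untreated and 13263 TPM with IL-4 on TC plates, means of 2 libraries). Csf1r, Fcgr1, Mertk, Cd14, Aif1 and the more abundant entry of Itgam also fell with IL-4 on every substrate. Adgre1, Cd68 and Mrc1 rose on every substrate (on TC plates from 378 to 572, 2257 to 2818 and 347 to 1365 TPM). Summed neutrophil markers were lower in gels, at 16.7 to 23.2 against 24.6 to 34.6 TPM (low collagen) and 14.6 to 15.8 against 16.3 to 20.01 TPM (high collagen), and overlapped on TC plates. The mean of S100a8 fell in both gels (12.2 to 7.19 and 6.44 to 3.81 TPM). That of S100a9 fell at low collagen (14.3 to 9.88 TPM) but not at high collagen (9.21 and 9.25 TPM). Ngp rose at low collagen (0.569 to 1.46 TPM) and Ltf at high collagen (1.13 to 1.45 TPM). The part of the macrophage or the neutrophil markers in the changes of the 10 genes was not tested.

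**Figure D2:**
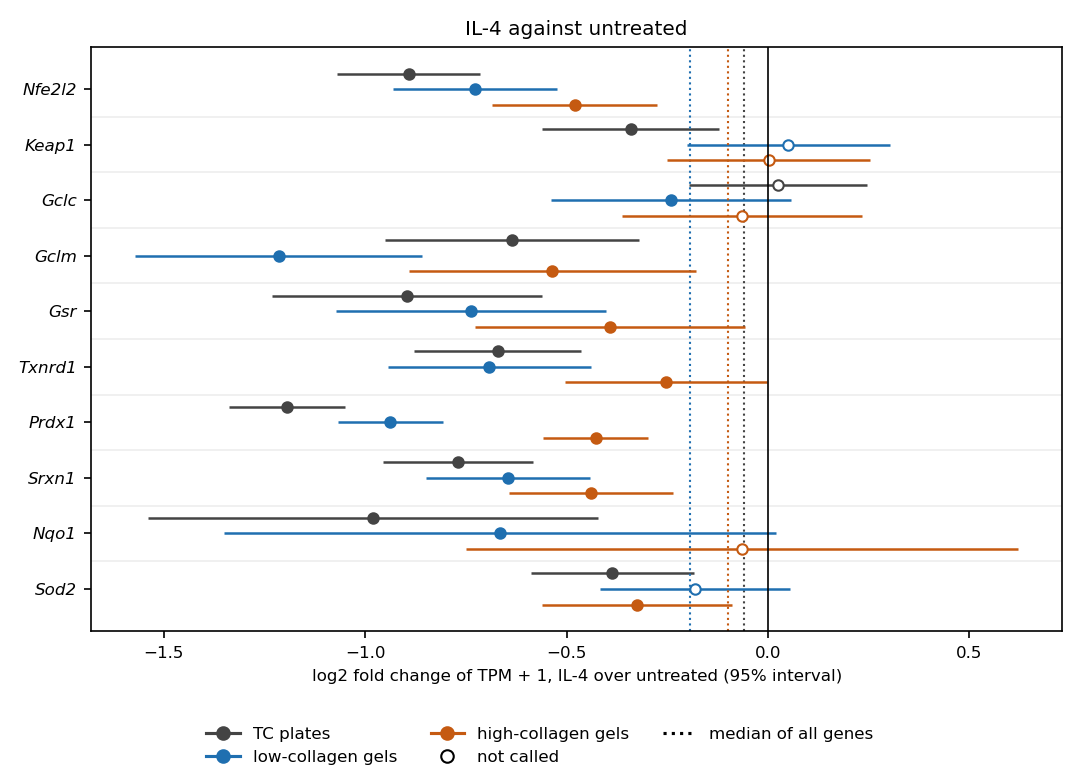
Log2 fold changes of TPM + 1 for IL-4 over untreated cells (horizontal axis), with 95% intervals, for each gene on TC plates and in gels of low and high collagen; filled points passed the threshold of 0.2 on the adjusted p-value, open points did not, and dotted lines mark the median of all genes. Prdx1, Nfe2l2, Srxn1, Gclm, Gsr and Txnrd1 lie to the left of 0 on all 3 substrates, and on TC plates Gclc (0.03) and Keap1 (−0.34) lie nearest to 0.

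Nfe2l2, which encodes NRF2 itself, fell with IL-4 on all 3 substrates. On TC plates it was 220 and 224 TPM untreated and 116 and 123 TPM with IL-4. In low-collagen gels it was 155 and 177 TPM untreated and 95.01 and 104 TPM with IL-4, and in high-collagen gels 172 and 157 TPM untreated and 119 and 116 TPM with IL-4. Every untreated library was above every IL-4-treated library, also across substrates. The log2 fold changes were −0.89 ± 0.08 (SE) on TC plates, −0.73 ± 0.09 in low-collagen gels and −0.48 ± 0.09 in high-collagen gels, with adjusted p-values of 3.11e-05, 0.000764 and 0.00875.

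Keap1, the inhibitor of NRF2, was called lower with IL-4 on TC plates only, by −0.34 ± 0.10 on the log2 scale (adjusted p = 0.0322), from 43.6 and 47.3 TPM to 36.3 and 35.0 TPM. Low-collagen gels had 28.5 and 28.0 TPM untreated and 31.9 and 26.9 TPM with IL-4. In high-collagen gels it was 33.5 and 29.6 TPM untreated and 30.7 and 32.5 TPM with IL-4. The untreated and IL-4-treated libraries overlapped in both gels, and the adjusted p-values were 0.745 and 0.995. Averaged over the substrates, its log2 fold change of −0.10 ± 0.06 passed the threshold (adjusted p = 0.194) but became 0.033 after median-ratio rescaling, 0.021 after quantile normalization and 0.065 once GC content and transcript length were corrected for. The difference of its IL-4 response between gels and TC plates is given further on.

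Glutamate-cysteine ligase, which makes the rate-limiting step of glutathione synthesis, has a catalytic subunit, encoded by Gclc, and a modifier subunit, encoded by Gclm. Gclm was 299 and 333 TPM on untreated TC plates and 197 and 208 TPM with IL-4. In low-collagen gels it was 82.7 and 96.3 TPM untreated and 39.1 and 36.8 TPM with IL-4, and in high-collagen gels 108 and 116 TPM untreated and 64.9 and 91.5 TPM with IL-4. The groups did not overlap on any substrate, and the 2 IL-4-treated libraries of high-collagen gels were the farthest apart relative to their mean. Gclm fell by 0.64 on the log2 scale on TC plates (SE 0.14, adjusted p = 0.00918), by 1.21 in low-collagen gels (SE 0.15, adjusted p = 0.000936) and by 0.54 in high-collagen gels (SE 0.15, adjusted p = 0.0531).

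Gclc was called with IL-4 on 1 of the 3 substrates. On TC plates it was 32.4 and 31.9 TPM untreated and 31.9 and 33.6 TPM with IL-4, giving a log2 fold change of 0.03 with a 95% interval of −0.19 to 0.25 (adjusted p = 0.891). In high-collagen gels it was 8.09 and 7.51 TPM untreated and 7.43 and 7.38 TPM with IL-4 (log2 fold change −0.06, 95% interval −0.36 to 0.23, adjusted p = 0.773). In low-collagen gels the 2 untreated libraries, at 7.05 and 7.65 TPM, were both above the IL-4-treated ones, at 6.41 and 5.74 TPM, and the log2 fold change of −0.24 ± 0.13 was just past the threshold (adjusted p = 0.189). This last call was lost under 15 of 20 alternative settings.

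Gsr, glutathione reductase, which regenerates reduced glutathione with NADPH, was 51.8 and 62.6 TPM on untreated TC plates and 32.8 and 27.8 TPM with IL-4. In low-collagen gels it was 32.6 and 27.7 TPM untreated and 15.5 and 20.0 TPM with IL-4, and in high-collagen gels 29.9 and 33.8 TPM untreated and 22.6 and 25.5 TPM with IL-4. The groups did not overlap within any substrate, although untreated gels and IL-4-treated TC plates lay in the same range. Gsr fell by 0.90 (SE 0.15, adjusted p = 0.00189), 0.74 (SE 0.14, adjusted p = 0.00749) and 0.39 (SE 0.14, adjusted p = 0.112) on the log2 scale on TC plates, in low- and in high-collagen gels, and the last call was lost under 6 of 19 alternative settings.

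Prdx1 had the largest fall of the 10 genes on TC plates on the log2(TPM + 1) scale, although in TPM its ratio of 2.28 times was below the 2.48 times of Nqo1, and its estimates had the smallest standard errors. It went from 4851 and 4807 TPM to 1976 and 2253 TPM on TC plates, from 1494 and 1606 TPM to 804 and 812 TPM in low-collagen gels, and from 1561 and 1656 TPM to 1206 and 1184 TPM in high-collagen gels. On every substrate both IL-4-treated libraries were below both untreated ones, and untreated gels were below IL-4-treated TC plates. The log2 fold changes were −1.19 ± 0.06, −0.94 ± 0.06 and −0.43 ± 0.06, with adjusted p-values of 1.06e-06, 2.17e-05 and 0.00177.

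Srxn1, sulfiredoxin, repairs peroxiredoxins that have been overoxidized. It was 150 and 143 TPM on untreated TC plates against 80.8 and 90.6 TPM with IL-4. In gels it was 54.6 and 49.0 TPM (low collagen) and 50.02 and 49.9 TPM (high collagen) untreated, against 34.3 and 31.2 TPM and 37.3 and 35.9 TPM with IL-4. All 4 untreated gel libraries were above all 4 IL-4-treated gel libraries. Srxn1 fell by 0.77 on TC plates (SE 0.08, adjusted p = 0.000115), by 0.65 in low-collagen gels (SE 0.09, adjusted p = 0.00134) and by 0.44 in high-collagen gels (SE 0.09, adjusted p = 0.0128).

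Txnrd1, thioredoxin reductase of the cytosol, keeps thioredoxin reduced. It was 257 and 247 TPM on untreated TC plates and 156 and 159 TPM with IL-4. In low-collagen gels it was 48.0 and 57.7 TPM untreated and 31.98 and 32.4 TPM with IL-4, and in high-collagen gels 58.3 and 58.6 TPM untreated and 45.5 and 52.6 TPM with IL-4. The groups were apart on each substrate, least so in high-collagen gels. The log2 fold changes were −0.67 ± 0.09 (adjusted p = 0.000575), −0.69 ± 0.11 (adjusted p = 0.00269) and −0.25 ± 0.11 (adjusted p = 0.163), and the last call was lost under 11 of 19 alternative settings.

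Nqo1 was 4.88 and 4.69 TPM on untreated TC plates and 1.84 and 2.02 TPM with IL-4, a fall of 0.98 ± 0.25 on the log2 scale (adjusted p = 0.0181). Its level in low-collagen gels was 1.56 and 1.54 TPM untreated and 0.658 and 0.557 TPM after IL-4, a log2 fold change of −0.66 ± 0.29 that passed the threshold (adjusted p = 0.124) and lost the call under 8 of 19 alternative settings. In high-collagen gels it was 1.64 and 1.16 TPM untreated and 1.94 and 0.775 TPM with IL-4, so that the IL-4-treated libraries lay on both sides of the untreated ones (log2 fold change −0.06, 95% interval −0.75 to 0.62, adjusted p = 0.909). Because 1 was added to each value, these log2 fold changes understate the change of so low a transcript.

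Sod2, the superoxide dismutase of mitochondria, is driven by NF-κB as well as being counted among antioxidant genes. It was 37.6 and 36.1 TPM on untreated TC plates against 26.7 and 29.3 TPM with IL-4 (log2 fold change −0.39 ± 0.09, adjusted p = 0.0119). It was 19.2 and 18.3 TPM in untreated high-collagen gels against 15.3 and 14.2 TPM with IL-4 (−0.32 ± 0.10, adjusted p = 0.0705). In low-collagen gels it was 16.4 and 17.6 TPM untreated against 15.4 and 14.3 TPM with IL-4, and this difference did not pass the threshold (−0.18, 95% interval −0.42 to 0.06, adjusted p = 0.211). The libraries did not overlap, which was also so for 45.5% of all genes between untreated high- and low-collagen gels.

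Genes that work beside these 10 were followed in lists, and 24.0% of all genes were called lower and 14.7% higher with IL-4 on TC plates. On TC plates IL-4 lowered 9 and raised 2 of 15 other thioredoxin and peroxiredoxin genes, and lowered 12 and raised 2 of 24 heme, iron and quinone targets of NRF2. It lowered 2 and raised 0 of 13 other glutathione genes, lowered 5 and raised 3 of 13 glutathione transferases, and lowered 5 and raised 3 of 10 genes of NADPH supply. Prdx5, a peroxiredoxin of mitochondria and peroxisomes, fell from 677 to 174 TPM (means of 2 libraries, log2 fold change −1.96 ± 0.06), and Slc40a1, the iron exporter ferroportin, fell from 240 to 60.4 TPM (−1.97 ± 0.08). Cybb, the catalytic subunit of the phagocyte NADPH oxidase, a source of superoxide, fell from 191 to 58.5 TPM (−1.69 ± 0.11), and 5 of 8 genes of that oxidase were lower and 0 higher. Rises on TC plates were led by the glutathione transferases Mgst1 (108 to 232 TPM, 1.09 ± 0.05) and Gsto1 (71.0 to 144 TPM, 1.01 ± 0.07) and by the epoxide hydrolase Ephx1 (26.3 to 50.9 TPM, 0.93 ± 0.08).

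In gels, the same lists gave 7 lower and 3 higher (low collagen) and 7 lower and 1 higher (high collagen) of 15 thioredoxin and peroxiredoxin genes, and 15 lower and 1 higher and 12 lower and 1 higher of 24 heme, iron and quinone targets. Of 12 regulators of NRF2, 5 were lower and 1 higher in low-collagen gels and 3 lower and 1 higher in high-collagen gels, beside 3 lower and 2 higher on TC plates. Of all genes, 40.4% and 22.8% were called lower and 13.2% and 11.5% higher in low- and high-collagen gels. Slc40a1 fell from 377 to 72.5 TPM in low-collagen gels (−2.36 ± 0.08) and from 298 to 115 TPM in high-collagen gels (−1.37 ± 0.08). Gpx3, the secreted glutathione peroxidase, fell from 59.2 to 18.8 TPM (−1.60 ± 0.11) and from 80.8 to 33.0 TPM (−1.27 ± 0.11), and Gsta3 from 9.52 to 2.04 TPM (−1.78 ± 0.18) and from 12.8 to 3.69 TPM (−1.56 ± 0.18). Glrx, the cytosolic glutaredoxin, rose from 65.2 to 164 TPM (1.33 ± 0.13) and from 77.4 to 155 TPM (0.99 ± 0.13), and Mgst1 rose by 0.49 ± 0.06 and 0.46 ± 0.06. The other glutathione genes were thus divided, with 3 lower and 3 higher of 12 in low-collagen gels and 4 lower and 2 higher in high-collagen gels, and the transferases gave 4 lower and 2 higher and 3 lower and 2 higher of 13. Genes of NADPH supply gave 5 lower and 0 higher and 4 lower and 0 higher of 10, genes of the NADPH oxidase 5 lower and 2 higher of 8 in either gel. Cyba, a gene of that oxidase, rose from 1185 to 1732 TPM in low-collagen gels (0.55 ± 0.08). Xdh, of the heme, iron and quinone targets, rose from 85.7 to 135 TPM in high-collagen gels (0.65 ± 0.12). The list of other superoxide dismutases and catalase gave 3 and 2 lower of 3 in the gels, and 2 lower and 1 higher on TC plates.

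The second comparison asks whether the concentration of collagen changed these transcripts. Without IL-4, limma called 0 of the 10 genes between high- and low-collagen gels, where 3.23% of all genes were called higher and 4.79% lower, and 0 of the 10 had an unadjusted p-value under 0.05, beside 15.7% of all genes. With IL-4, 5 of the 10 genes were higher in high-collagen gels and 0 lower, beside 14.1% higher and 6.99% lower of all genes, and the median of the 10 genes was 0.34 beside 0.06 for all genes. The genes that were called were Gclm, Txnrd1, Prdx1, Gsr and Nfe2l2. The count fell to 3 after median-ratio rescaling, which moved the median of all genes by −0.08 and the share of all calls that were higher from 66.9% to 45.7%. It was also 3 without either 1 of the 2 IL-4-treated high-collagen libraries or without replicate 1 of the IL-4-treated low-collagen libraries. In untreated gels the share of all calls that were higher moved from 40.3% to 50.7% under the same rescaling.

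Gclm was higher by 2.06 times in mean TPM in IL-4-treated high-collagen gels (64.9 and 91.5 TPM against 39.1 and 36.8 TPM). Its log2 fold change was 1.01 ± 0.15 (adjusted p = 0.0185), which was above that of 98.9% of all genes. Txnrd1 was 1.52 times as high (45.5 and 52.6 TPM against 31.98 and 32.4 TPM, 0.59 ± 0.11, adjusted p = 0.0300), and Prdx1 1.48 times (1206 and 1184 TPM against 804 and 812 TPM, 0.56 ± 0.06, adjusted p = 0.00766). These 3 genes kept their calls under all 19 alternative settings run for them. Gsr (0.42 ± 0.14, adjusted p = 0.138) and Nfe2l2 (0.24 ± 0.09, adjusted p = 0.161) were also apart between the gels, but lost their calls under 7 and 11 of 19 alternative settings.

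The other 5 genes were not called with IL-4. Nqo1 was higher in both high-collagen libraries (1.94 and 0.775 TPM against 0.658 and 0.557 TPM), with a log2 fold change of 0.51 and a 95% interval of −0.18 to 1.19 (adjusted p = 0.348). Gclc gave 0.25 (−0.05 to 0.55, adjusted p = 0.294) and Srxn1 0.16 (−0.05 to 0.36, adjusted p = 0.333), each with high-collagen libraries above low-collagen ones. Keap1 gave 0.10 (−0.15 to 0.36) and Sod2 −0.01 (−0.24 to 0.23), and their libraries overlapped. Between IL-4-treated high- and low-collagen gels, the summed macrophage markers were 36548 to 38521 against 31689 to 32782 TPM, neutrophil markers 14.6 to 15.8 against 16.7 to 23.2 TPM and eosinophil markers 1.42 to 2.26 against 0.753 to 0.779 TPM. Lyz2 made most of the macrophage sums (31861 against 26553 TPM, means). The means of Adgre1, Csf1r, Itgam and Cd14 were also higher. Those of Cd68 (2189 against 2618 TPM), Mrc1 (770 against 873 TPM), Fcgr1, Mertk and Aif1 were lower. Among neutrophil markers, S100a8 (3.81 against 7.19 TPM), S100a9, Ngp and Camp had lower means, and Ltf (1.45 against 1.14 TPM) and Elane higher ones. Siglecf set the eosinophil difference (1.71 against 0.562 TPM), while Ccr3 was lower (0.132 against 0.204 TPM) and Prg2 and Epx were listed at 0. The part of these in the differences was not tested.

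**Figure D3:**
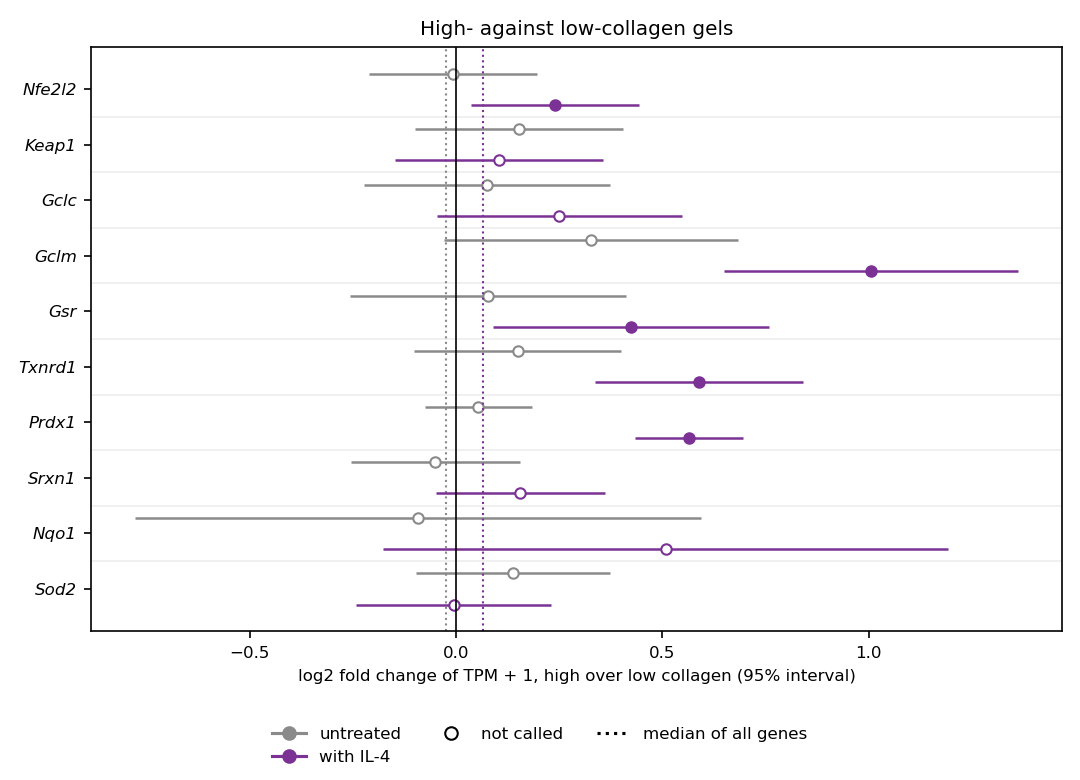
Log2 fold changes of TPM + 1 for high- over low-collagen gels (horizontal axis), with 95% intervals, for each gene in untreated and IL-4-treated cells; filled points passed the threshold of 0.2 on the adjusted p-value, open points did not, and dotted lines mark the median of all genes. All 10 untreated points are open, and with IL-4 Gclm, Txnrd1, Prdx1, Gsr and Nfe2l2 are filled and to the right of 0.

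Without IL-4, the largest differences between the gels were those of Gclm (0.33, 95% interval −0.03 to 0.68, adjusted p = 0.357), Keap1 (0.15, −0.10 to 0.40) and Txnrd1 (0.15, −0.10 to 0.40). The high- and low-collagen libraries of these 3 genes and of Sod2 (0.14, −0.10 to 0.37) did not overlap, and those of the other 6 did. Of all genes, 45.5% had libraries that did not overlap between these gels. Prdx1 was 1609 ± 67.1 TPM in high- and 1550 ± 79.2 TPM in low-collagen gels (SD, n = 2), and Nfe2l2 was 165 ± 10.1 and 166 ± 15.7 TPM.

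Among neighboring genes with IL-4, high-collagen gels had more Gpx3 (33.0 against 18.8 TPM, 0.78 ± 0.11), Slc40a1 (115 against 72.5 TPM, 0.66 ± 0.08) and Gstm5, a glutathione transferase (26.6 against 16.6 TPM, 0.65 ± 0.12). They had less Cyba, a membrane subunit of the NADPH oxidase (1321 against 1732 TPM, −0.39 ± 0.08), Gpx1, the cytosolic glutathione peroxidase (442 against 557 TPM, −0.33 ± 0.08), and Blvra, biliverdin reductase (104 against 131 TPM, −0.33 ± 0.08). By list, 4 of 15 thioredoxin and peroxiredoxin genes were higher and 3 lower, 3 of 10 NADPH supply genes higher and 0 lower, 3 of 13 transferases higher and 1 lower, and 6 of 24 heme, iron and quinone targets higher and 3 lower. Of the other glutathione genes 2 of 12 were higher and 1 lower, of the regulators 0 of 12 higher and 1 lower, of the dismutase and catalase list 2 of 3 higher, and of the oxidase 3 of 8 higher and 2 lower. All genes gave 14.1% higher and 6.99% lower.

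Without IL-4, Hmox1, heme oxygenase-1, a well-known NRF2 target that is also repressed by BACH1, was lower in high-collagen gels (381 against 542 TPM, −0.51 ± 0.05, adjusted p = 0.0187), as were Nqo2, a quinone reductase (29.8 against 45.3 TPM, −0.59 ± 0.08), and Msrb2, a methionine sulfoxide reductase (14.3 against 20.997 TPM, −0.53 ± 0.14). Gpx3 (80.8 against 59.2 TPM, 0.44 ± 0.11), Cbr3 (19.7 against 14.5 TPM, 0.41 ± 0.13) and Akr1b8 (50.7 against 37.9 TPM, 0.41 ± 0.09) were higher, the last 2 being carbonyl-reducing enzymes. In all, 7 of 24 heme, iron and quinone targets were lower and 4 higher, 3 of 15 thioredoxin and peroxiredoxin genes were lower, 2 of 10 NADPH supply genes, 1 of 3 of the dismutase and catalase list and 1 of 8 oxidase genes were higher, 1 of 12 other glutathione genes was higher and 1 lower, and 0 of the transferases and of the regulators were called. All genes gave 3.23% higher and 4.79% lower.

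The third comparison asks whether the response to IL-4 itself depended on collagen, as the difference between the IL-4 effects in the gels, high collagen minus low. Prdx1 was the 1 gene of the 10 that was called, with a difference of 0.51 ± 0.08 on the log2 scale (adjusted p = 0.126), since it fell by 0.43 in high- and by 0.94 in low-collagen gels. Of all genes, 0.194% were called higher and 0.169% lower, and 3 of the 10 genes (Prdx1, Gclm and Txnrd1) had an unadjusted p-value under 0.05, as did 9.88% of all genes. The call of Prdx1 was lost after median-ratio rescaling, which moved the share of all calls that were higher from 53.5% to 36.8%, with the replicate number as a block (0 of the 10 genes called), and without any 1 of 6 of the 8 gel libraries. Gclm (0.68, 95% interval 0.18 to 1.18, adjusted p = 0.423) and Txnrd1 (0.44, 0.08 to 0.79, adjusted p = 0.444) had intervals above 0 but did not pass the threshold. The median of the 10 genes was 0.30, beside 0.09 for all genes. In the other lists, 1 of 15 thioredoxin and peroxiredoxin genes and 2 of 24 heme, iron and quinone targets were called higher, and 0 of the remaining lists.

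The fourth comparison sets gels against TC plates, where the shape of the substrate, its material and the handling of the cells at harvest cannot be told apart. All 10 genes were lower in untreated low-collagen gels, and all 10 in untreated high-collagen gels, than on untreated TC plates, where 44.3% and 45.5% of all genes were lower and 28.5% and 28.0% higher. With IL-4, all 10 were lower in low-collagen gels and 8 in high-collagen gels, beside 52.2% and 48.1% of all genes lower and 22.8% and 26.5% higher. The medians of the 10 genes were −1.33, −1.38, −1.12 and −0.85 in this order, beside medians of −0.13, −0.16, −0.28 and −0.20 over all genes, which median-ratio rescaling moved up by 0.14, 0.16, 0.28 and 0.21. That rescaling moved the share of all calls that were higher from 39.2% to 49.7%, from 38.05% to 49.3%, from 30.4% to 49.9% and from 35.6% to 49.9%. The 2 untreated comparisons share the untreated TC libraries and the 2 with IL-4 share the IL-4-treated ones, so that the values of low and high collagen are not independent. Macrophage markers summed to 18912 to 29026 TPM on TC plates and 31689 to 54472 TPM in gels. Summed neutrophil markers were higher in gels (given above), with Ly6g listed at 0 in every library. Of these, S100a9 had higher means in gels with either treatment (14.3 and 9.21 against 2.00 TPM untreated). S100a8 was higher except in high-collagen gels with IL-4 (3.81 against 4.48 TPM), and Ltf went either way. Lyz2 made most of the macrophage sums (untreated means of 23767 TPM on TC plates and 39829 and 48889 TPM in low- and high-collagen gels). Adgre1, Csf1r, Fcgr1, Mertk and Aif1 were also higher in gels, untreated and with IL-4. Cd68 was lower in both (2257 against 1799 and 1441 TPM untreated, 2818 against 2618 and 2189 TPM with IL-4). Cd14 was lower in gels only untreated, Mrc1 only with IL-4, and Itgam went either way. The part of neither the macrophage nor the neutrophil markers in these differences was tested.

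**Figure D4:**
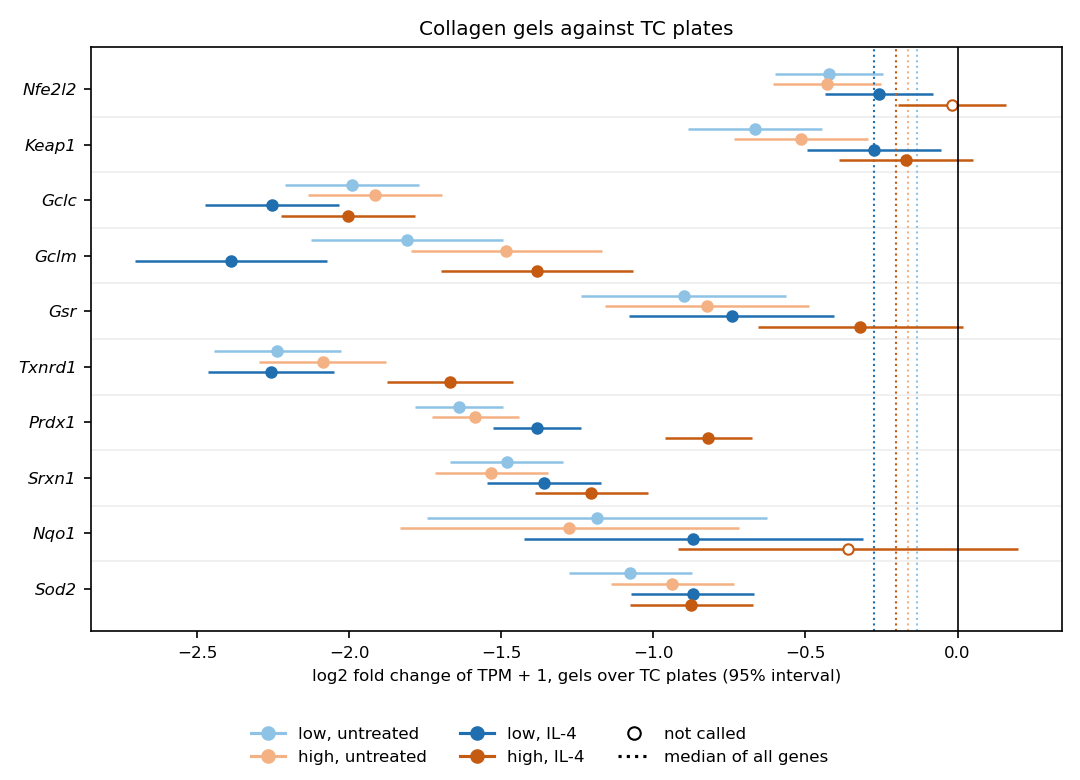
Log2 fold changes of TPM + 1 for gels over TC plates (horizontal axis), with 95% intervals, for each gene in low- and high-collagen gels, untreated and with IL-4; filled points passed the threshold of 0.2 on the adjusted p-value, open points did not, and dotted lines mark the median of all genes. Txnrd1 and Gclc lie between −1.67 and −2.26 in all 4 comparisons, and Nfe2l2 lies between −0.43 and −0.02.

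Txnrd1, Gclc and, with IL-4, Gclm showed the largest differences of the 10 genes. Untreated Txnrd1 was 252 ± 7.24 TPM on TC plates, 52.8 ± 6.83 TPM in low-collagen gels and 58.5 ± 0.228 TPM in high-collagen gels (SD, n = 2), that is, 4.76 and 4.31 times as high on TC plates. Its log2 fold changes were −2.24 ± 0.09 and −2.09 ± 0.09 untreated and −2.26 ± 0.09 and −1.67 ± 0.09 with IL-4, with adjusted p-values of 4.63e-07 or less. Gclc was 4.37 and 4.12 times as high on untreated TC plates as in low- and high-collagen gels, and 5.39 and 4.42 times as high with IL-4 (log2 fold changes −1.99, −1.91, −2.26 and −2.00, each ± 0.10). The 4 TC libraries, at 31.9 to 33.6 TPM, were thus well above the 8 gel libraries, at 5.74 to 8.09 TPM, whatever the treatment. Gclm was 3.53 and 2.81 times as high on TC plates untreated and 5.34 and 2.59 times with IL-4, and its 2 gel conditions with IL-4 were the most unlike each other (−2.39 ± 0.14 at low and −1.38 ± 0.14 at high collagen).

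Prdx1 was 3.12 and 3.00 times as high on untreated TC plates as in low- and high-collagen gels, and 2.62 and 1.77 times as high with IL-4 (log2 fold changes −1.64, −1.59, −1.38 and −0.82, each ± 0.06). Srxn1 was 2.83 and 2.93 times as high untreated and 2.62 and 2.34 times with IL-4 (−1.48, −1.53, −1.36 and −1.20, each ± 0.08). No gel library of Prdx1 or Srxn1 reached the TPM of the lowest TC library of either treatment. Sod2 was 2.17, 1.96, 1.88 and 1.89 times as high on TC plates in the same order, and Gsr 1.90, 1.80, 1.70 and 1.26 times. With IL-4 in low-collagen gels, quantile normalization moved Sod2 from −0.87 to −0.52 and Gsr from −0.74 to −0.39. The last value of Gsr (−0.32 ± 0.15, adjusted p = 0.0900) lost its call under 6 of 22 alternative settings.

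Nqo1 was 3.10 and 3.42 times as high on untreated TC plates (−1.18 ± 0.25 and −1.28 ± 0.25), and 3.18 times as high on IL-4-treated TC plates as in low-collagen gels (−0.87 ± 0.25, adjusted p = 0.0123). Against high-collagen gels with IL-4 it was not called (−0.36, 95% interval −0.92 to 0.20, adjusted p = 0.235), and the libraries overlapped. Nfe2l2 had smaller log2 fold changes in these comparisons. It was 1.34 and 1.35 times as high on untreated TC plates (−0.42 ± 0.08 and −0.43 ± 0.08, adjusted p = 0.00115 and 0.000990). These values moved to −0.26 and −0.25 after median-ratio rescaling and to −0.14 and −0.13 after the correction for GC content and length, where the call in high-collagen gels was lost (adjusted p = 0.203). With IL-4 its log2 fold change was −0.26 ± 0.08 in low-collagen gels, which became 0.050 after median-ratio rescaling and 0.17 after the correction for GC content and length, and −0.02 (95% interval −0.20 to 0.16) in high-collagen gels, which became 0.21, 0.18 and 0.31, each past the threshold, after rescaling, quantile normalization and that correction. Keap1 was 1.61 and 1.44 times as high on untreated TC plates (−0.67 ± 0.10 and −0.51 ± 0.10), and the latter moved to −0.28 after quantile normalization. With IL-4 it gave −0.27 ± 0.10 and −0.17 ± 0.10, which became 0.026 and 0.054 after rescaling and 0.053 and 0.093 after quantile normalization, so that the direction of neither regulator between gels and TC plates with IL-4 held under these settings.

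Not all antioxidant genes were lower in gels. Among 13 glutathione transferases, 11 were higher and 1 lower in untreated low-collagen gels, 12 higher and 1 lower in untreated high-collagen gels, and 8 and 9 higher and 1 and 3 lower with IL-4. Mgst2 was 28.3 against 6.03 TPM in untreated low-collagen gels (2.07 ± 0.22), while Mgst3 was 31.9 against 78.5 TPM (−1.28 ± 0.11). Gpx3 was 59.2 and 80.8 TPM in untreated low- and high-collagen gels against 6.12 TPM on TC plates (3.10 ± 0.17 and 3.55 ± 0.17), and Txnip, which binds and inhibits thioredoxin, was 1419 and 1336 against 241 TPM (2.55 ± 0.06 and 2.46 ± 0.06). Both were also higher in gels with IL-4, Gpx3 by 1.83 ± 0.17 and 2.60 ± 0.17 and Txnip by 2.65 ± 0.06 and 2.75 ± 0.06. Glrx was lower in untreated gels (65.2 and 77.4 against 191 TPM, −1.55 ± 0.11 and −1.29 ± 0.11), and so was Msra, a methionine sulfoxide reductase, in high-collagen gels (13.5 against 36.8 TPM, −1.39 ± 0.11).

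The remaining lists were counted in the same way. All genes gave 28.5% and 28.0% higher and 44.3% and 45.5% lower in untreated low- and high-collagen gels. With IL-4 they gave 22.8% and 26.5% higher and 52.2% and 48.1% lower. Of 15 thioredoxin and peroxiredoxin genes, 7 were higher and 6 lower in either untreated gel, and 6 higher and 7 or 5 lower with IL-4 in low- or high-collagen gels. Of 24 heme, iron and quinone targets, 7 and 4 were higher and 11 and 12 lower untreated, and 5 and 4 higher and 12 and 13 lower with IL-4. Ephx1 was 124 against 26.3 TPM in untreated high-collagen gels (2.20 ± 0.08), Abcc4, an exporter of conjugates, was 4.82 against 13.6 TPM in untreated low-collagen gels (−1.34 ± 0.15), and Nqo2 was 30.1 against 71.5 TPM in IL-4-treated high-collagen gels (−1.22 ± 0.07). The 10 genes listed for the supply of NADPH, which Gsr, Txnrd1 and Nqo1 consume, gave 7 lower and 3 or 2 higher untreated, and 8 or 7 lower and 2 higher with IL-4. Nnt, the transhydrogenase of mitochondria, was 5.05 against 15.3 TPM in low-collagen gels with IL-4 (−1.42 ± 0.29). This transcript level does not tell whether these C57BL/6J cells made the protein. Of 12 regulators, 9 were lower and 1 higher in either untreated gel, and 9 and 8 lower and 0 higher with IL-4, Gsk3b, a kinase that promotes NRF2 degradation, among them (17.1 and 20.1 against 43.8 TPM with IL-4). The other glutathione genes gave 7 lower and 4 higher of 13 in either untreated gel and 4 and 6 lower and 3 and 5 higher with IL-4. Of the 8 NADPH oxidase genes 3 and 2 were higher and 3 and 4 lower untreated, and 5 and 4 higher and 2 lower with IL-4, and of the 3 other dismutases and catalase 2 were higher and 1 lower in either untreated gel, 1 higher and 2 lower in IL-4-treated low-collagen gels, and 1 higher and 0 lower in IL-4-treated high-collagen gels.

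The last comparison takes the IL-4 response in gels minus that on TC plates. In low-collagen gels 2 of the 10 genes had a larger value and 1 a smaller one, beside 9.30% and 18.7% of all genes. Gclm fell more with IL-4 in low-collagen gels than on TC plates (difference −0.58 ± 0.20, adjusted p = 0.10002), while Prdx1 fell less (0.26 ± 0.09, adjusted p = 0.108). Keap1 also had a larger value in low-collagen gels (0.39 ± 0.14, adjusted p = 0.109), where its IL-4 effect was 0.05 and not called, against −0.34 on TC plates. The count of 3 became 1 without either 1 of the untreated TC libraries, without replicate 2 of the IL-4-treated TC libraries or without replicate 2 of the IL-4-treated low-collagen libraries. Median-ratio rescaling moved the median of all genes up by 0.14, the count of the 10 genes to 5 and the share of all calls that were higher from 33.3% to 60.0%.

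In high-collagen gels the IL-4 response was shifted upward in 6 of the 10 genes and downward in 0, beside 8.66% and 8.61% of all genes, so that the fall with IL-4 was smaller than on TC plates. Prdx1 had the firmest difference, 0.77 ± 0.09 (adjusted p = 0.00127), from a log2 fold change of −1.19 on TC plates to −0.43 in high-collagen gels. The others were Nqo1 (0.92 ± 0.35, adjusted p = 0.175), Txnrd1 (0.42 ± 0.13, adjusted p = 0.0983), Nfe2l2 (0.41 ± 0.11, adjusted p = 0.0613), Keap1 (0.34 ± 0.14, adjusted p = 0.199) and Srxn1 (0.33 ± 0.12, adjusted p = 0.145). Leaving out 1 library changed the count of 6 to 2 (without replicate 1 of the IL-4-treated TC libraries) or 3 (without either 1 of the untreated TC libraries or any 1 of the 4 high-collagen libraries), and Prdx1 kept its call under all 22 alternative settings. The share of all calls that were higher moved from 50.1% to 61.4% after median-ratio rescaling. The medians of the 10 genes in the 2 comparisons were 0.16 and 0.38, beside −0.12 and −0.03 for all genes, and both rest on the same TC libraries. In the other lists, 6 of 15 and 7 of 15 thioredoxin and peroxiredoxin genes and 4 of 8 NADPH oxidase genes in either gel had a larger value in gels, and 3 of 15 and 2 of 15 of the former and 0 of the latter a smaller one. Of 24 heme, iron and quinone targets, 0 and 1 had a larger and 8 and 2 a smaller value in low- and high-collagen gels, and of 13 glutathione transferases 2 and 1 a larger and 2 and 3 a smaller one. The other glutathione genes gave 3 larger in either gel and 3 and 2 smaller of 13, NADPH supply 2 larger and 3 smaller of 10 in either gel, the regulators 1 and 2 larger and 2 and 1 smaller of 12, and the dismutase and catalase list 0 and 1 larger and 1 and 0 smaller of 3.

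Within a library the ratio of 2 transcripts does not depend on the scaling of the library. The ratio of Gclm to Gclc was 9.21 and 10.5 on untreated TC plates, 6.18 and 6.20 on TC plates with IL-4, 11.7 and 12.6 in untreated low-collagen gels and 6.10 and 6.40 in low-collagen gels with IL-4. In high-collagen gels it was 13.4 and 15.5 untreated and 8.74 and 12.4 with IL-4, so that the ratio was lower with IL-4 on every substrate without overlap, and the IL-4-treated high-collagen libraries were the farthest apart. The ratio of Nfe2l2 to Keap1 was 4.74 to 6.32 in the 6 untreated libraries and 2.98 to 3.89 in the 6 IL-4-treated ones. The ratio of Txnrd1 to Prdx1 was 0.0513 to 0.0791 on TC plates and 0.0321 to 0.0444 in gels, again without overlap. The ratio of Srxn1 to Prdx1 overlapped between substrates, at 0.0298 to 0.0409 on TC plates and 0.0301 to 0.0426 in gels. These ratios were described and not tested.

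**Figure D5:**
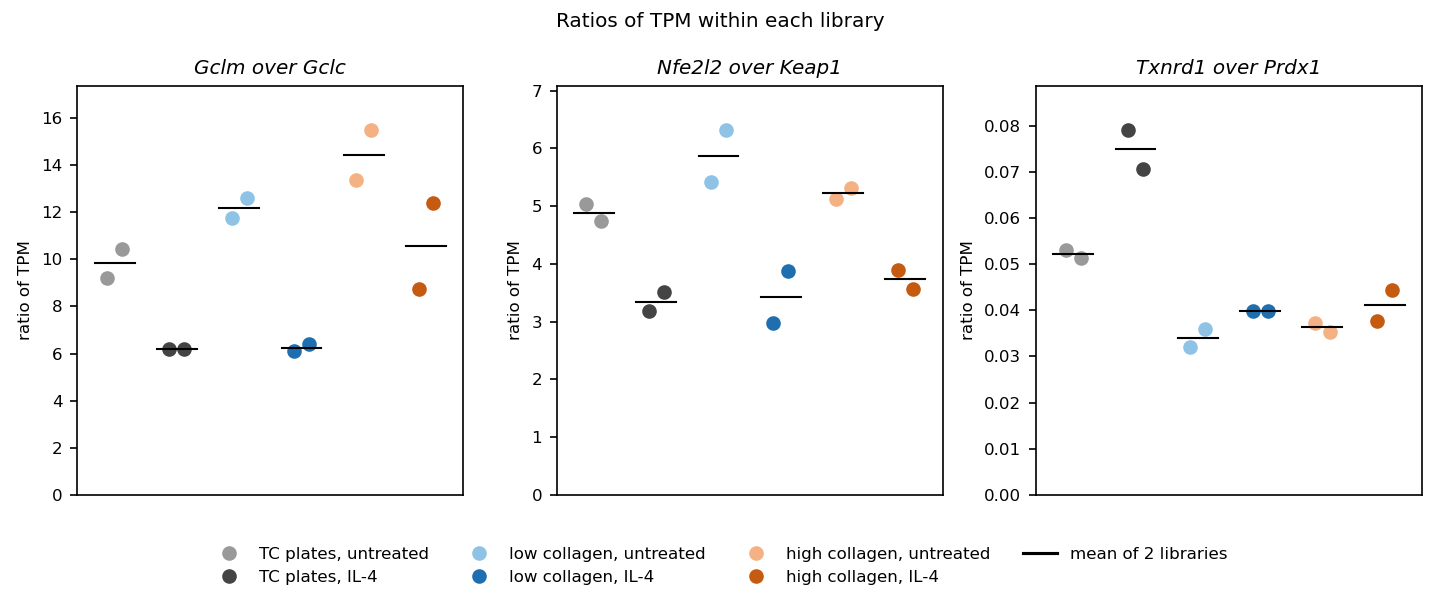
Ratios of TPM (vertical axes, from 0) of Gclm to Gclc, Nfe2l2 to Keap1 and Txnrd1 to Prdx1 in each of the 12 libraries, with colors for the 6 conditions and a black line for the mean of the 2 libraries. Gclm over Gclc and Nfe2l2 over Keap1 are lower with IL-4 on each substrate, and Txnrd1 over Prdx1 is higher in all TC libraries than in all gel libraries.

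The genes differed in how far they moved. The range of the 6 condition means of log2(TPM + 1) was 3.02 for Gclm, 2.93 for Txnrd1 and 2.58 for Prdx1, and was smallest for Keap1, at 0.67. In TPM, where nothing is added to low values, the highest condition mean was 8.33 times the lowest for Gclm, 7.88 times for Nqo1, 7.82 times for Txnrd1 and 5.98 times for Prdx1, so that the place of Nqo1 in this order depends on the scale. Across the 12 libraries, which fall into groups by substrate and treatment and are not independent points, Pearson's r between pairs of the 10 genes was 0.389 (Gclc and Nfe2l2) to 0.981 (Srxn1 and Sod2), given as a description with no test. For the 3 genes with the widest range of log2(TPM + 1), the genes of all 11865 with the highest r were Abhd17c (0.989), Kpna3 (0.987) and Nap1l1 (0.986) for Gclm, Rapgef5 (0.993), App (0.992) and Zranb3 (0.992) for Txnrd1, and Sntb2 (0.994), Chst11 (0.992) and Pik3cb (0.992) for Prdx1. None of these 9 is among the 10 genes or in the lists above.

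The genes lie apart from each other in GRCm38, with Nfe2l2 at chr2:75675513-75704641, Keap1 at chr9:21229730-21239361, Gclc at chr9:77754535-77794485, Gclm at chr3:122245557-122270732 and Gsr at chr8:33652523-33698163. Txnrd1 is at chr10:82833951-82897712, Prdx1 at chr4:116685544-116700822, Srxn1 at chr2:152105516-152111376, Nqo1 at chr8:107388225-107403206 and Sod2 at chr17:13006846-13040063. All are annotated as protein-coding. Reads could be divided with other genes for some of them: of the words of 31 bases in their annotated transcripts, 26.7% of Sod2, 15.4% of Prdx1, 9.02% of Keap1 and 6.83% of Gclm also occur in another gene, against 0.738% of Srxn1 and 0 for the other 5. For Keap1 all of these words lie in Gm16754, an annotated antisense gene whose exons overlap its own, and for Gclm the exons overlap those of Gm17494 on the other strand and of the pseudogene Gm6061. The options that the study gives for kallisto include none for strand, so that reads from words shared with Gm16754 and Gm17494 could not be assigned by strand. The other words of Keap1 occur in no other gene. For Gclm, 4.47% of the words occur in Gm17494, and the 6.83% that are shared are spread over 1164 other genes. The words were counted in GENCODE M21, and whether these partners were in the transcriptome that the study used was not checked.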

How the data were processed

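Stranded mRNA libraries were sequenced with paired-end reads of 38 bases, and the authors quantified them with kallisto (version 0.46.1, per the submitters' processing notes) on the Ensembl release 90 transcriptome of GRCm38. The deposited values are TPM per gene, corrected for transcript length and scaled to an equal total per library. How transcripts were joined into genes is not given in the sources used here, and TPM keep no depth, so that no counting error could be given. Of 34456 lines in the table, 129 repeated ones were collapsed. No 2 libraries held identical values.

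Values were transformed to log2(TPM + 1), and genes with a mean of at least 1 TPM were tested with limma (version 3.58.1, R 4.3.3, with a mean-variance trend) with 1 mean per condition. The 8 gel libraries were fitted together for comparisons among gels (11852 genes), and all 12 libraries for comparisons with TC plates (11865 genes). P-values were adjusted by the Benjamini-Hochberg method over all genes tested, and adjusted values under 0.2 were called. Values after ± are standard errors (SE) unless marked as SD. The test was also run on simulated data in which libraries varied independently. Such data cannot tell whether the 2 libraries of a condition are technical, nor how scaling moves the calls.

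The 10 genes and the lists of related genes, cell type markers and IL-4 targets were chosen with earlier results of these data known. All 10 genes are named in every comparison. From the lists, named genes were drawn from up to 3 called genes per direction in each comparison. These had the largest changes, a mean of 5 TPM or more and libraries that did not overlap. Not each of them is named in every comparison, and values of named genes are repeated in other comparisons. The genes most like a given gene are the 3 with the highest Pearson correlation over the 12 libraries, for the 3 genes with the widest range of condition means. Gene positions and shared sequence words came from the GENCODE M21 annotation of GRCm38, and promoters from RefSeq GRCm38.p6.

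Alternatives were a pseudocount of 0.1, no filter or a mean of at least 5 TPM, no trend, median-ratio rescaling, quantile normalization, other sets of libraries in the fit, the replicate number as a block, each library left out in turn and a threshold of 0.05. A correction of each library for its GC and length dependence (values for 99.41% of genes tested) and a block with crossed numbers were added after seeing the data.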

Additional observations from a re-analysis of the deposited data

Results flagged for a closer look

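Each result below is a difference of IL-4 responses between 2 substrates that passed the test of the difference itself, with limma and an adjusted p-value under 0.2. Between high- and low-collagen gels, Prdx1 differed by 0.51 on the log2 scale (adjusted p = 0.126). It kept this direction under all 18 alternatives (0.40 to 0.56, adjusted p of 0.0882 to 0.402) and lost the call under 12 of them.

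Between low-collagen gels and TC plates, the response of Gclm differed by −0.58 (adjusted p = 0.10002), with −0.69 to −0.38 and an adjusted p of 0.0263 to 0.253 over 22 alternatives, of which 6 lost the call. Prdx1 differed by 0.26 (adjusted p = 0.108) and ranged from 0.05 to 0.41 (adjusted p of 0.0264 to 0.846), with 9 of 22 calls lost. Keap1 differed by 0.39 (adjusted p = 0.109) and ranged from 0.27 to 0.54 (adjusted p of 0.0194 to 0.266), with 5 of 22 calls lost.

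Between high-collagen gels and TC plates, Prdx1 differed by 0.77 (adjusted p = 0.00127) and kept its call under all 22 alternatives, at 0.55 to 0.86. Nfe2l2 differed by 0.41 (adjusted p = 0.0613) and lost its call under 1 of 22 alternatives (adjusted p of 0.0360 to 0.171). Txnrd1 differed by 0.42 (adjusted p = 0.0983, over the alternatives 0.0189 to 0.253, 5 of 22 calls lost) and Srxn1 by 0.33 (adjusted p = 0.145, over the alternatives 0.0711 to 0.344, 8 of 22 calls lost). Nqo1, the lowest of the transcripts, differed by 0.92 (adjusted p = 0.175, over the alternatives 0.0503 to 0.401, 14 of 21 calls lost) and Keap1 by 0.34 (adjusted p = 0.199, over the alternatives 0.0644 to 0.421, 14 of 22 calls lost).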

How the results depend on the processing

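Over all 10 genes, 13 comparisons and their alternatives, 2453 of 2696 values kept their direction and side of the threshold, 165 lost the call, 28 gained it and 50 changed sign, of which 38 were called in neither fit. The 12 others that changed sign were Keap1 with IL-4 averaged over the substrates (0.033 after median-ratio rescaling, 0.021 after quantile normalization and 0.065 after the GC and length correction), and Nfe2l2 and Keap1 between gels and TC plates with IL-4. In low-collagen gels Nfe2l2 became 0.050 after rescaling and 0.17 after the GC and length correction, and Keap1 0.026 after rescaling and 0.053 after quantile normalization. In high-collagen gels Nfe2l2 became 0.21, 0.18 and 0.31 after rescaling, quantile normalization and the GC and length correction, all 3 of which were called (limma, adjusted p = 0.0542, 0.0858 and 0.00960, with up to 0.997 over its alternatives), and Keap1 became 0.054 after rescaling and 0.093 after quantile normalization. The cause was not tested.

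At an adjusted p under 0.05 the counts of the 10 genes called became 3 instead of 7 for IL-4 in high-collagen gels, 3 instead of 5 between gels with IL-4, 0 instead of 1 for the interaction in gels, 0 instead of 3 for the IL-4 response in low collagen against TC plates and 1 instead of 6 for that in high-collagen gels, because the threshold is stricter. Between gels with IL-4 the count was also 3 with no filter, after median-ratio rescaling and after quantile normalization. The interaction in gels gave 0 with no filter, with no trend, after rescaling, with the replicate block and after the GC and length correction, while the difference of IL-4 responses between low collagen and TC plates gave 5 after rescaling and after that correction. Leaving out 1 library at a time gave 9 to 9 for IL-4 on TC plates, 6 to 7 and 4 to 7 in low- and high-collagen gels, 8 to 10 for the average, 3 to 5 between gels with IL-4, 0 to 0 between untreated gels, 10 to 10 for either untreated gel against TC plates, 9 to 10 and 6 to 8 with IL-4, 0 to 1 for the interaction in gels, and 1 to 3 and 2 to 6 for the IL-4 responses in low and high collagen against TC plates. The lone library of a condition was then assumed to vary like the other conditions.

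Same-numbered libraries showed little shared deviation between conditions, with correlations of −0.123 to 0.109. This cannot tell whether they were paired by culture or mouse, which the labels do not give. With the number as a replicate block, 9, 7, 7 and 8 of the 10 genes were called for IL-4 (TC plates, low gels, high gels, average), 4 and 0 between gels, 10, 10, 10 and 8 for gels against TC plates, and 0, 3 and 5 for the differences of responses. With crossed numbers the block gave 9 on TC plates and 8 in low-collagen gels. A fit of only the compared libraries gives no separate value for the average and for the interaction in gels, which already hold all of their libraries.

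With 2 libraries per condition the spread of single genes is poorly known, and Nqo1, near 1 TPM in gels, could not be measured closely, as the interval of its IL-4 effect in high-collagen gels (−0.75 to 0.62) shows. Depth is unknown.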
